A study of Homo sapiens with 4 samples.

Results

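The core spliceosome genes were 34 listed genes that encode protein subunits of the machine that removes introns from transcripts. They were chosen by name, and Pol II peaks were taken from 5000 bp before to 5000 bp after each gene. All 34 matched the RefSeq table of GRCh38, which held 19974 protein-coding genes on chromosomes 1 to 22 and X. The windows of these genes held 118 peaks of the control list (36345 in all) and 81 of the knockdown list (26387). The study profiled RNA polymerase II (Pol II) by ChIP-seq in U2OS, a human osteosarcoma cell line. One group received a control siRNA (NC) and the other an siRNA against NKAP (NKAP_KD), both by lipid transfection 48 h before fixation in 1% formaldehyde for 10 min. Each group had 1 Pol II ChIP library, made with 1 commercial antibody, and the input libraries and the level of NKAP were not analysed here. No difference between the conditions therefore had a replicate check, and none was tested.

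The spliceosome assembles anew on each intron from small nuclear ribonucleoproteins (snRNPs), each a small nuclear RNA with a ring of Sm proteins and its own specific proteins. The U1 snRNP recognises the 5′ splice site, the U2 snRNP and U2AF recognise the branch site and the 3′ splice site, and the U4/U6.U5 tri-snRNP brings the components of the catalytic core. The Prp19 complex and RNA helicases then activate and recycle the machine, and the exon junction complex marks the joined exons. Splicing takes place largely while Pol II is still transcribing, and these genes are active in nearly all dividing cells. NKAP itself is a nuclear protein that binds RNA and takes part in splicing.

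Many promoters of the core spliceosome genes held a sequence that the choice of genes did not use. RefSeq promoter windows (GRCh38.p14, 250 bp before to 50 bp after the start) were matched for 31 of the 34 genes. SF3B3, PRPF3 and SNRPD1 had no entry and hence no strand here. The 7 promoters shown are those on which the results turn. They belong to SF3B2 and SNRPB, which carry the ETS match found in 17 of these genes, SNRNP70, with the highest read count, SF3B1 and PRPF19, with the lowest and highest knockdown to control ratio of reads, U2AF1, which lacked a start peak in the knockdown list, and PRPF31, which lacked one in both. Each is written 5′ to 3′ on the gene's strand. Capitals mark exact matches, on either strand, to the Sp1/KLF, ETS, NRF1, YY1, NFY, E-box and TATA box motifs.
SF3B2 (chr11:66052114-66052413, plus strand): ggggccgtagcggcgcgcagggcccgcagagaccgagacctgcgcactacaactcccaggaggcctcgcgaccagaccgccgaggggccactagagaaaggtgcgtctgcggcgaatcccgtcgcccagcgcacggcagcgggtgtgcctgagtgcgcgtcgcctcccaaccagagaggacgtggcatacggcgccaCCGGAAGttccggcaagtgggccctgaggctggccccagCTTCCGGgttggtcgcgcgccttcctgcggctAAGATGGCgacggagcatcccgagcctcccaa
SNRPB (chr20:2470740-2471039, minus strand): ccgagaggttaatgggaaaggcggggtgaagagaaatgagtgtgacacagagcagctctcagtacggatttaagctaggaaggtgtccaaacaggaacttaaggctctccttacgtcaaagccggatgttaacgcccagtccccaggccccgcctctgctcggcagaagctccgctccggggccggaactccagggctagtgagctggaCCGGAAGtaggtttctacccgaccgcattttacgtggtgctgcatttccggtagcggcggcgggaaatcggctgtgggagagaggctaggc
SNRNP70 (chr19:49085201-49085500, plus strand): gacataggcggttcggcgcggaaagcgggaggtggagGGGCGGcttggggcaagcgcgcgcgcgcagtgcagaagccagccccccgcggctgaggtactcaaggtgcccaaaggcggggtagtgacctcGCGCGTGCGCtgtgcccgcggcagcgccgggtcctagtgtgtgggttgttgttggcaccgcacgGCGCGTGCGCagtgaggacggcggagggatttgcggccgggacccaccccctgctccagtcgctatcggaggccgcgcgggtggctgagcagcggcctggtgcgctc
SF3B1 (chr2:197435044-197435343, minus strand): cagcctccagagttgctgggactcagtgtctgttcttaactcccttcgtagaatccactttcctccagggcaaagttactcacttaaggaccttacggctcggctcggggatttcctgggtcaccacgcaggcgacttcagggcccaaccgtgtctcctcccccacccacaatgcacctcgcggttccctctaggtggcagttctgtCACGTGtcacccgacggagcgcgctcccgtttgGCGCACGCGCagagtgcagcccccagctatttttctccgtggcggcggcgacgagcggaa
PRPF19 (chr11:60906536-60906835, minus strand): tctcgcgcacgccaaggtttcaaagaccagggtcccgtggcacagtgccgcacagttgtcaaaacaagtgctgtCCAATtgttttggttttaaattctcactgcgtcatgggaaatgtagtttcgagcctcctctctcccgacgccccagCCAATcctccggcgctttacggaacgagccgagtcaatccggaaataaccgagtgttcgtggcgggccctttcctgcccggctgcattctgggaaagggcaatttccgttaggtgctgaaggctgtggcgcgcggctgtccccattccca
U2AF1 (chr21:43107521-43107820, minus strand): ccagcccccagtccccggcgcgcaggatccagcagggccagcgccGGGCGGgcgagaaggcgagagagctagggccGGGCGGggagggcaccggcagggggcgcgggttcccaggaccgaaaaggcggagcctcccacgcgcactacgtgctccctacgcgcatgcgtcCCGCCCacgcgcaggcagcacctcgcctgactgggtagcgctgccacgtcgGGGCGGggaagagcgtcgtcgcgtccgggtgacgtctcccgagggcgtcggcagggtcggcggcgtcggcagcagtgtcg
PRPF31 (chr19:54115504-54115803, plus strand): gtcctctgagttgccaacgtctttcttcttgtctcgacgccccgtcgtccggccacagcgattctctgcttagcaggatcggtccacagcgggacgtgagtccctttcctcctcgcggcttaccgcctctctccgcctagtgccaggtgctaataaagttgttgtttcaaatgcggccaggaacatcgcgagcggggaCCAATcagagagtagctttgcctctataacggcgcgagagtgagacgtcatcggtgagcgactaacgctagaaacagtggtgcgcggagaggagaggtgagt

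The ETS core CCGGAAG, on either strand, was present in 17 of 31 core spliceosome promoters (54.8%). It was present in 14.1% of the 15812 protein-coding promoters of the same length, and in 21.1% of the 9413 whose gene had a start peak in the control list. In 13 of the 31 a match lay between 100 bp before and 50 bp after the start of the promoter entry. That start differed from the gene start used for peaks in 3 genes, SNRPE, SNRPG and U2AF1. BUD31, PRPF6, SF3A3, SF3B2, SNRPB2 and SNRPC had 2 matches each. Those of SNRPC overlapped, in the run CTTCCGGAAG matched on both strands, and are not separate sites. In SF3B2 the 2 matches lay on opposite strands upstream of the start, and a match to AAGATGGC, the YY1 core, lay downstream of it. The YY1 core was present in 4 of 31 (RBM8A, SF3A1, SF3B2 and SF3B4, 12.9%). It was present in 3.86% of all promoters and in 5.78% of those with a control start peak.

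The NRF1 motif was matched in 5 of 31 (16.1%, against 8.6% of all promoters), 2 times in SNRNP70 and once in SF3B1. The Sp1/KLF box GGGCGG was matched in 20 (64.5% against 58.3%) and the NFY box CCAAT in 10 (32.3% against 36.4%). The E-box CACGTG was matched in 3 (9.68% against 8.82%) and the TATA box TATAAA in SNRPC alone (3.23% against 9.75%). Among genes with a control start peak, the shares were 12.9% (NRF1), 72.2% (Sp1/KLF), 36.7% (NFY), 10.5% (E-box) and 5.07% (TATA box). Against these genes the Sp1/KLF share of the core spliceosome genes was the lower. The windows of the core spliceosome genes held a median of 27 CpG dinucleotides, as did those of genes with a control start peak, against 22 over all. Among 75 further spliceosome genes CCGGAAG was matched in 34 (45.3%). Of the SR genes, whose products bind exonic enhancers, 2 of 12 had a match, and of the hnRNP genes, whose products coat nascent transcripts, 5 of 23 (21.7%). A match is a run of letters, and binding of a factor was not measured.

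**Figure D1:**
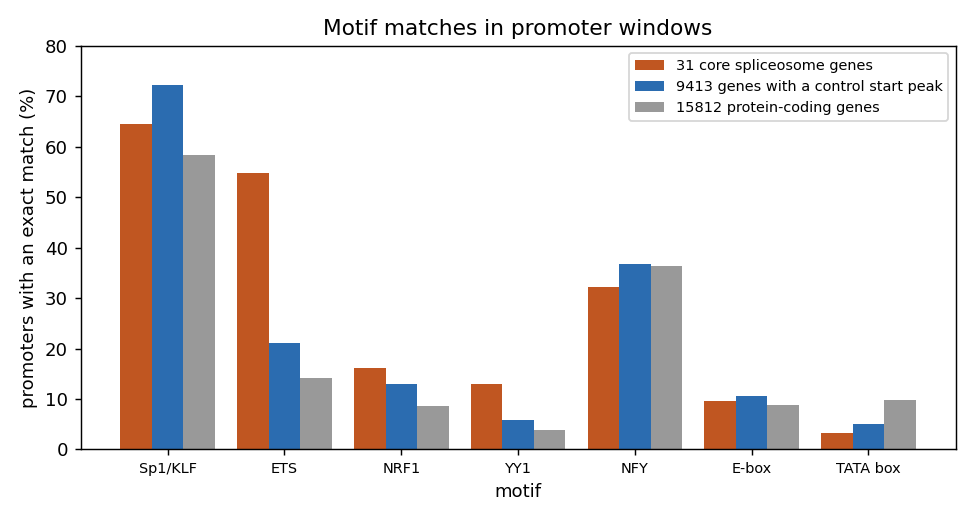
Share of RefSeq promoter windows (y axis, percent) with at least 1 exact match to each motif (x axis), for the 31 core spliceosome genes with a promoter entry, genes with a start peak in the control list, and all protein-coding genes with an entry. The ETS bar of the core spliceosome genes stands at 54.8%, against 21.1% and 14.1%.

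Nearly all core spliceosome genes carried Pol II at the promoter in both libraries. A start peak was a peak touching the 1000 bp on either side of the annotated start. Of the 31 genes with a strand, 30 had a control start peak, as did 59.5% of all protein-coding genes, and 29 had a knockdown start peak, as did 56.5%. All 29 had it in both lists, which held for 55.2% of all genes. Of the genes with a control start peak over the genome, 92.8% also had a knockdown start peak, so that 29 of 30 is near the background. SF3B3, PRPF3 and SNRPD1 had a peak at the lower-coordinate gene end in both lists. In 9 of the 34 genes a start peak also held the start of another protein-coding gene, as with SNRPA and ACTMAP or BUD31 and PDAP1, and Pol II of the 2 genes cannot be told apart there.

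The exceptions were U2AF1 and PRPF31. U2AF1, the small U2AF subunit that contacts the AG of the 3′ splice site (chromosome 21, 43092956 to 43107578), had a weak control start peak with 15 reads and a fold enrichment of 7.47, with its summit 233 bp upstream of the start. No knockdown peak reached its start window, and the next knockdown peak beyond the start lay 199451 bp away. Past the gene's end a peak was present in both lists, with 11 reads in the control and 17 in the knockdown library. PRPF31, a protein of the U4/U6.U5 tri-snRNP (chromosome 19, 54115754 to 54131713), had no peak of either list in its window. The nearest control peaks lay 12669 bp below and 5229 bp above the gene, and the nearest knockdown peaks 95069 and 5835 bp. The neighbour TFPT also lay wholly within these peak-free stretches. Regions below the authors' threshold are not listed, so absence from a list does not show absence of Pol II, and how uniquely reads map at these loci was not tested.

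The amount of Pol II at a summit was read from the number of sequenced reads there, which was recovered from the fold and p-value of each peak as whole numbers. The deposited folds are the authors' own values over a local background and were used within a list only. To set the libraries side by side, knockdown reads were divided by 0.842, the ratio of the genome-wide backgrounds. On that scale all protein-coding genes with overlapping start peaks had a median log2 ratio (knockdown over control) of -0.13, that is 1.09-fold fewer reads in the knockdown library, and ratios are given relative to this median. Their intervals are exact binomial 95% intervals for counting error only.

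Summits at core spliceosome genes were strong in both libraries. The median start peak had 54 reads in the control list (lowest 15, highest 100), against 38 over all genes, and 36 in the knockdown list (lowest 19, highest 70), against 30. In the control library 22 of 30 lay over the all-gene median and 14 over the upper quartile of 55 reads. In the knockdown library 20 of 29 lay over the median and 10 over the upper quartile of 42 reads. SR and hnRNP genes had higher medians still, of 106 and 85 reads in the control and 58 and 58 in the knockdown library. The 75 further spliceosome genes, with medians of 39 and 31.5 reads, were close to all genes.

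The highest summits lay at genes of the U1 snRNP, the Sm ring and the exon junction complex. SNRNP70, the U1 protein that binds the first stem loop of the U1 RNA (chromosome 19, 49085451 to 49108604), had 100 reads in the control and 70 in the knockdown library. EIF4A3, the helicase that clamps the exon junction complex on RNA (chromosome 17, 80134369 to 80147128), had 96 and 67 reads. SNRPD3, SNRPB and SNRPG, of the Sm ring that encircles the snRNA, had 93, 89 and 88 control reads and 68, 53 and 55 knockdown reads. SNRPC, the U1 protein that steadies pairing with the 5′ splice site, had 80 and 60. These 6 genes had the most control reads. In the knockdown library SNRNP200, with 61 reads, stood above SNRPC, SNRPG and SNRPB. The control folds of the 6 ran from 20.3 (SNRPC) to 45.3 (EIF4A3).

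Members of one complex differed widely. Within the Sm ring, whose proteins assemble in equal numbers, SNRPF had only 26 control and 23 knockdown reads, and SNRPE, SNRPD2 and SNRPD1 had 53, 61 and 69 control reads. Within the tri-snRNP, PRPF8, the large protein at the catalytic centre, had the fewest reads of all with an overlapping peak (22 and 19), while SNRNP200, the helicase that unwinds U4 from U6, had 64 and 61. PRPF6, PRPF4, PRPF3 and EFTUD2, the tri-snRNP GTPase, had between 31 and 41 control reads. The U2-specific SNRPA1 and SNRPB2, with 37 and 43 control reads, stood below the U1-specific SNRNP70, SNRPC and SNRPA (77).

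**Figure D2:**
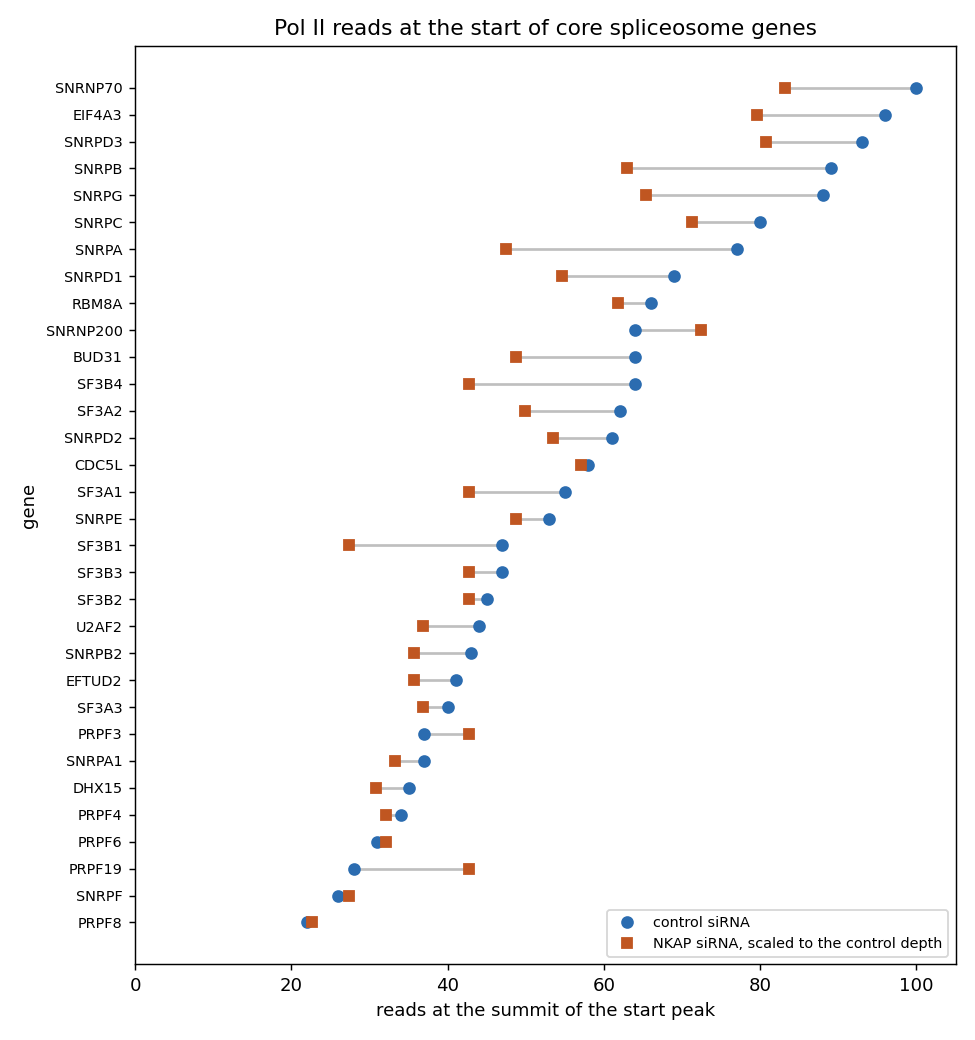
Reads at the summit of the start peak (x axis) for the 32 core spliceosome genes with overlapping peaks in both lists (y axis), in the control library (circles) and in the NKAP siRNA library divided by the background ratio of 0.842 (squares). For SF3B3, PRPF3 and SNRPD1 the peak at the lower-coordinate end is shown. To the left of their circle lie 26 of 32 squares. Of all genes with a strand and overlapping start peaks, 65.2% had fewer knockdown reads on this scale.

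Read ratios at the start peaks of these genes lay close to the all-gene median. On the background scale alone, 24 of 29 genes with a strand had fewer knockdown reads, where 65.2% of all genes did. That share was not computed for genes of like control reads. The median relative log2 ratio of all genes was 0.24 at up to 25 control reads and 0.004 over 25 to 50. It was -0.09 over 50 to 75 and -0.11 over 75 to 100. In the same classes, core spliceosome genes had 0.17 (1 gene), -0.006 (12 genes), -0.06 (9 genes) and -0.14 (7 genes). Of the 29 genes with a strand and overlapping peaks, the median relative log2 ratio was -0.06, with quartiles of -0.18 and 0.05, where all genes had quartiles of -0.21 and 0.23. Past 1.5-fold lower was 1 gene, where 4.19% of all genes were, and past 1.5-fold higher was 1, where 5.52% were. For none of the 32 genes did the counting interval exclude the all-gene median. By the background ratio alone, without that median, the intervals of SNRPA and SF3B1 excluded equality. Neither interval count was computed over all genes, so both have no background beside them.

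SF3B1, the SF3B subunit that holds the branch site helix (chromosome 2, 197389784 to 197435093), had the lowest ratio. It had 47 reads in the control and 23 in the knockdown library, a relative log2 ratio of -0.65 (interval -1.44 to 0.10). SNRPA, a U1 protein that binds the second stem loop of the U1 RNA (chromosome 19, 40751203 to 40765389), had 77 and 40 reads (-0.57, interval -1.16 to 0.00). SF3B4, another SF3B subunit, had 64 and 36 reads (-0.45, interval -1.08 to 0.16). SF3B2 and SF3B3, of the same SF3B complex, had 45 and 47 control reads and 36 knockdown reads each, with relative log2 ratios of 0.06 and -0.01. The intervals of the 4 SF3B genes overlapped.

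PRPF19, the ubiquitin ligase of the Prp19 complex (chromosome 11, 60890547 to 60906585), had the highest ratio, with 28 control and 36 knockdown reads (0.74, interval -0.01 to 1.51). Its fold was 4.85 among control peaks and 17.1 among knockdown peaks. The caller's local background there was 4.98 reads in the control and 1.09 in the knockdown library. PRPF3 and SNRNP200, both of the tri-snRNP, followed at 0.34 and 0.31. By role, the median relative log2 ratio was highest for the tri-snRNP (0.17, from -0.07 to 0.34 over 6 genes) and lowest for SF3B (-0.23 over 4) and SF3A (-0.18 over 3). Differences between roles were not tested.

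**Figure D3:**
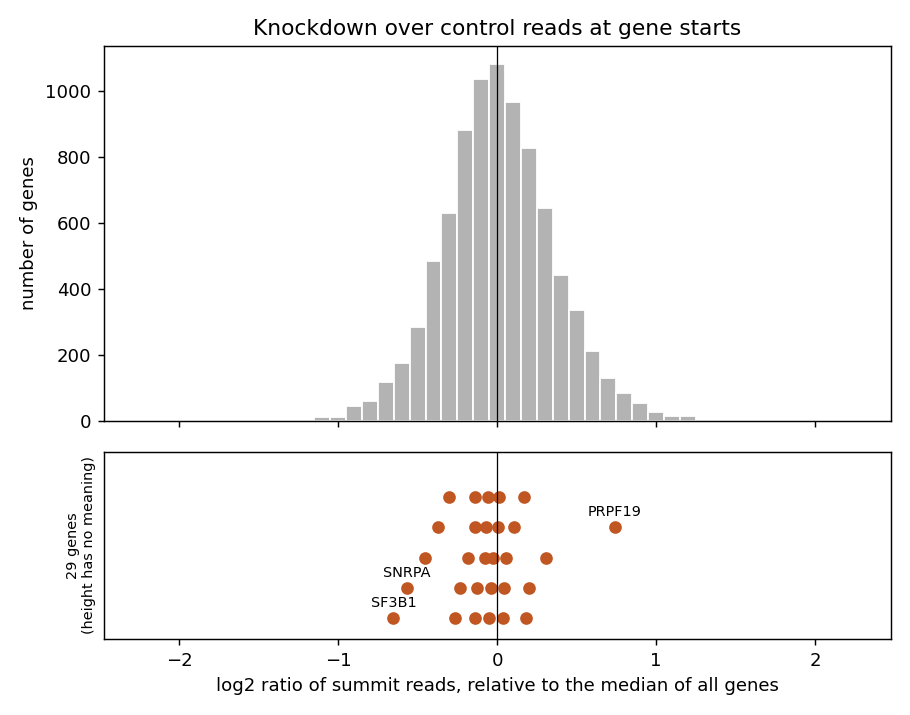
Relative log2 ratio of summit reads, knockdown over control (x axis), as the number of all protein-coding genes in each bin of 0.1 (upper panel) and as 1 point per core spliceosome gene with a strand (lower panel, where height carries no value). The points lie inside the bulk of all genes, from -0.65 (SF3B1) to 0.74 (PRPF19).

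The summits sat close to the start. Of the 30 control summits, 29 lay within 250 bp of the annotated start, and of the 29 knockdown summits 25 did, against 68.3% and 68.1% of the start peaks of all genes. The median lay 46.5 bp downstream in the control and 56 bp downstream in the knockdown list, where all genes had a median of 47 bp in each. Summits 0 to 250 bp downstream, where Pol II pauses, were found in 17 of 30 and 20 of 29 (56.7% and 69.0%), against 42.9% and 42.3% of all genes. For SNRPA, SNRPA1, SF3B4, SF3A2 and PRPF4 the summit lay upstream of the start in the control list (by 57 to 195 bp) and downstream in the knockdown list (by 24 to 216 bp). The starts of ACTMAP, PLEKHJ1 and CDC26 lay in the peaks of SNRPA, SF3A2 and PRPF4. SF3A1, whose peak held the start of CCDC157, went the other way, from 77 bp downstream to 32 bp upstream. With 34 to 77 control reads, the precision of these positions is unknown. The share of all genes whose summit changed side was not computed. Over all genes 61.9% of control and 60.9% of knockdown summits lay downstream, against 18 of 30 and 22 of 29 here.

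The median start peak was narrower in the knockdown list, as over all genes. The median width was 1707 bp in the control and 1443 bp in the knockdown list, against 1465 and 1097 bp over all genes. Of the 29 genes with a strand, 21 had a narrower knockdown peak, where 85.1% of all genes did. SNRPE had the widest control start peak (3495 bp, and 2434 bp in the knockdown list) and SF3A2 the widest knockdown peak (2794 bp, from 2471 bp). RBM8A, the exon junction partner Y14, went from 2961 to 1443 bp, although its reads were 66 and 52. In SNRPE and RBM8A a separate knockdown peak, of 225 and 319 bp, also lay within the stretch of the control start peak. These widths leave it out.

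Inside the core spliceosome genes the knockdown list held fewer peaks than the control list. Interiors were the sequence over 1000 bp inside both gene ends, in the 32 genes of at least 5000 bp. A control summit lay there in 15 of 32 genes, against 34.2% of all genes of that length, and a knockdown summit in 5 of 32, against 25.9%. These 5 (SF3A3, SF3B3, SNRNP70, U2AF2 and BUD31) were all among the 15, so that 33.3% were also found in the knockdown list. Over all genes this was 65.9%, and over the genes as long as these (5929 to 62720 bp) it was 62.3%, with 28.6% holding an interior control summit and 20.7% a knockdown one.

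The interior peaks were weak. The 32 control peaks inside these genes had folds from 3.76 to 8.15 and from 10 to 26 reads, with a median of 13. A knockdown peak overlapped 3 of the 32 (9.38%, Wilson 95% interval 3.24 to 24.2), where 36% of control peaks inside genes of like length were overlapped, and 23.6% of those with a fold up to 8.15. The 9 knockdown interior peaks had 10 to 17 reads, also with a median of 13, and 5 of them were overlapped by a control peak, against 77.7%. They included 1 in SNRPD2, which at under 5000 bp was left out of the counts by gene. Interior peaks were concentrated in a few genes, with 18 of the 32 control peaks in SNRNP70, SNRPA, U2AF2 and SF3A3.

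Covered length in the interiors was also lower, although it takes in the inner parts of wide start peaks. Peaks reached the interior of 20 genes, and in all 20 the knockdown peaks covered less of it, as they did in 83.9% of all genes and 84.1% of those of like length. RBM8A, PRPF3, EFTUD2, EIF4A3 and SNRPG had no interior summit. Their 8 to 450 bp of covered interior belonged to the control peak at the start or gene end. Control peaks covered 21093 bp of the interiors and knockdown peaks 3934 bp, a ratio of 0.187, against 0.510 over all genes and 0.506 over those of like length. SNRNP70 had 5356 bp of covered interior in the control and 1184 bp in the knockdown list, with a control peak of 2961 bp with its summit 17058 bp into the gene and 2 knockdown peaks of 231 and 253 bp in its place. SNRPA had 2137 bp in 5 control interior peaks and part of its start peak, and 0 bp in the knockdown list. SNRPB and SNRNP200 likewise went from 1270 and 411 bp to 0 bp. The interior peak of SNRPB made up 368 bp, and the rest of its 1270 bp was part of its start peak. SF3B3 had the highest ratio, with 1490 and 1026 bp. Without SNRNP70, SNRPA and U2AF2 the ratio was 0.202, and with control peaks held to what would pass at the knockdown depth it was 0.198, against 0.527 over all genes. With gene ends of 500 bp it was 0.352, against 0.533, and 25 of 29 genes had less, against 83.3% of all.

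**Figure D4:**
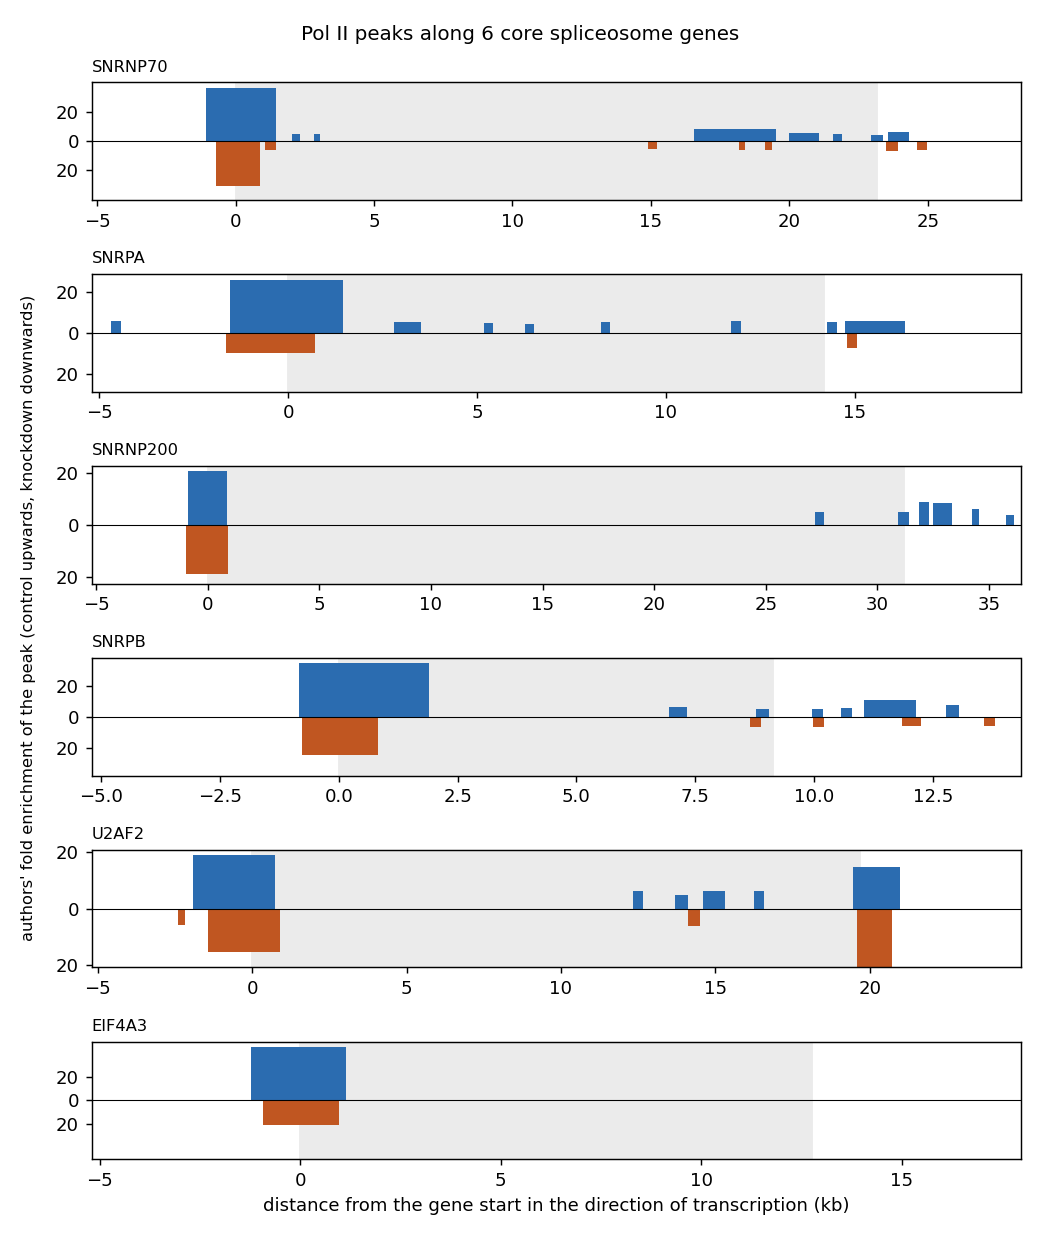
Peaks along 6 core spliceosome genes, with distance from the gene start in the direction of transcription (x axis, kb) and the authors' fold enrichment of each peak (y axis, control upwards and knockdown downwards); grey marks the gene. SNRPA has 5 interior peaks in the control list and none in the knockdown list, while EIF4A3 has its start peak alone in both. The folds rest on each list's own background.

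At gene ends and in flanks the totals of both lists were closer, although single genes differed. A clear end window, free of other protein-coding gene ends, was present for 22 genes. It was touched by a control peak in 6, where 10.4% of all genes had one, and by a knockdown peak in 5, where 6.27% had one. The 5 with both were SF3A3, SNRPA, SNRNP70, SNRPB and U2AF1, and BUD31 had one in the control list only. Of all genes with a control peak at a clear end, 51.5% also had a knockdown one. A summit lay in a flank, 1000 to 5000 bp outside the gene, for 17 of 34 genes in the control and 16 in the knockdown list, against 25.8% and 20.1% of all genes. It did so in both lists for 11 genes, in the control list only for 6 (SF3A3, SF3B4, SF3B3, SNRPA, SNRNP200 and BUD31) and in the knockdown list only for 5 (PRPF8, EFTUD2, SNRPD2, SNRNP70 and U2AF2). Over all 19974 genes these counts were 3369, 1788 and 640. Of the core spliceosome genes with a control flank peak, 64.7% also had a knockdown one, close to the 65.3% of all genes. The knockdown flank peak of PRPF8 (18 reads), at the start of RILP, overlapped a control peak (20 reads) whose summit lay 950 bp past the gene and so counted as an end peak, against 1123 bp in the knockdown list. SNRNP200 had 2 end peaks and 3 flank peaks past its end in the control list, with 14 to 25 reads, and none in the knockdown list. Its end window was not clear, and CIAO1 lay in its window, so these peaks cannot be assigned to SNRNP200 alone. Flank peaks near SF3B2 (51 and 41 reads) and SNRPA1 (23 and 25 reads) lay at the starts of PACS1 and SELENOS, and the end peak of U2AF2 (43 and 44 reads) at that of EPN1. Those 3 peaks at neighbours were present in both lists.

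Over the whole windows, control peaks covered 118469 bp and knockdown peaks 75011 bp, a ratio of 0.633, close to the 0.627 of all genes. The mean peak width in the windows was 1042 bp in the control and 970.4 bp in the knockdown list, with 1063 and 906.4 bp over all peaks. The knockdown list covered less in 29 of 33 genes with a covered window, where 86.1% of all genes did, and more in 4, where 13.9% did. The largest losses were at SNRNP70 (8611 and 3545 bp), SNRPA (6785 and 2630 bp), SF3A2 (10665 and 6953 bp), RBM8A (5612 and 2010 bp) and SNRNP200 (4564 and 1869 bp). The 4 genes with more were PRPF4 (814 and 1199 bp), SNRPF (579 and 886 bp), PRPF19 (735 and 960 bp) and SNRPD2 (2904 and 3046 bp). By role, the ratio ran from 0.483 for the U1- and U2-specific proteins and 0.490 for the exon junction complex to 0.751 for the Sm ring.

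**Figure D5:**
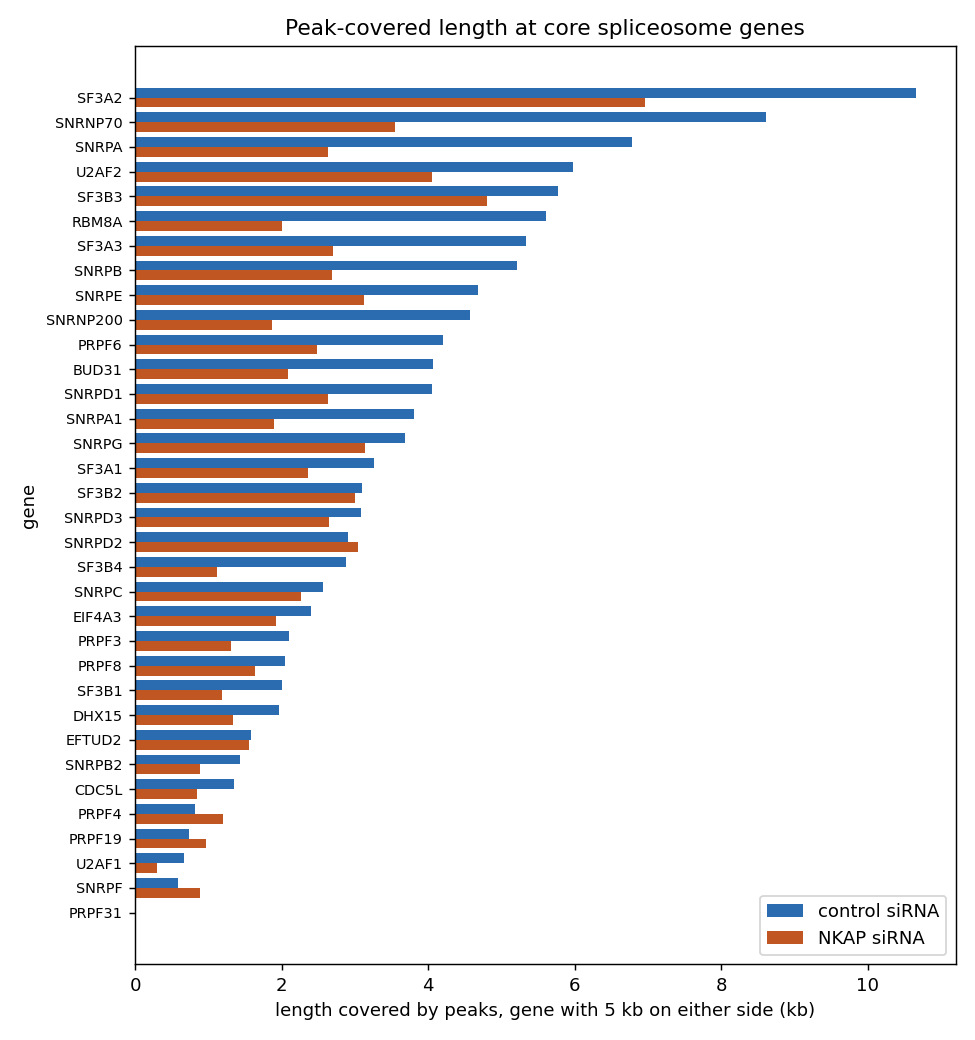
Length covered by peaks in the gene with 5 kb on either side (x axis, kb) for each of the 34 core spliceosome genes (y axis), in the control (upper bar) and the NKAP siRNA library (lower bar). The control bar is the longer in 29 genes, and PRPF31 has no bar.

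Peak by peak, 58 of the 118 control peaks in these windows (49.2%, Wilson 95% interval 40.3 to 58.1) were overlapped by a knockdown peak, against 54.2% of all control peaks. A control peak overlapped 66 of the 81 knockdown peaks (81.5%, 71.7 to 88.4), against 82.8%. By the place of the summit, 32 of the 34 control peaks at starts were overlapped, 9 of 14 at ends, 12 of 36 in flanks and 3 of 32 in interiors. Inside genes of like length 36% of all control peaks were overlapped. The share over all peaks was not computed for starts, ends or flanks, so those counts have no background beside them. Both control start peaks without a partner were weak, with 15 reads at U2AF1 and 9 at a second peak upstream of DHX15, the helicase that takes spent spliceosomes apart. DHX15 had its main start peak, of 35 and 26 reads, in both lists. A single peak filled the window in 10 genes in the control and 12 in the knockdown list, among them EIF4A3, CDC5L, SNRPC, SNRPB2 and PRPF4 in both.

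Of 88 further spliceosome genes, 75 had a strand. A start peak was listed for 71 of these in the control library and for 68 in the knockdown library, each of the 68 in both. DNAJC8, LSM2 and ZRSR2 had one in the control list only, with 13, 14 and 11 reads. High control folds were found at SRRM2 (46.0) and PUF60 (29.6). The highest knockdown folds were at LSM3, PUF60 and MAGOHB (37.3, 28.0 and 22.7). PUF60 had no strand, and its folds are those at a gene end. The relative log2 ratio of the further spliceosome genes had a median of 0.02, with 7 past 1.5-fold lower and 3 past 1.5-fold higher of 68. Interior coverage was lower in the knockdown list in 31 of 34, with a ratio of 0.371. For SR genes it was lower in 10 of 10 (0.517) and for hnRNP genes in 21 of 22 (0.458). The low ratio of the core spliceosome genes was not tested against these.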

How the data were processed

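Pol II ChIP-seq was analysed from 2 deposited peak lists, 1 for each library. The submitters' processing notes name bcl2fastq 2.17, Trimmomatic 0.33, Bowtie 1.1.2, MACS2 2.1.0 and the build hg38. No source used here gives the caller's settings or its background library. The deposited columns give each peak's position, a score (10 times the −log10 q-value without decimals), a fold ratio over the caller's background, −log10 p-values and −log10 q-values, and the summit. The lists ended at −log10 q of 3.01 (control) and 3.02 (knockdown).

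Summit reads were recovered with scipy 1.17.1 from fold = (pileup + 1)/(background + 1) and the Poisson p, with the knockdown pileup scaled by 0.926. Whole reads, to within 0.001 in −log10 p, were recovered for 100% of peaks of both lists. On 300 and 299 simulated peaks with scales of 1 and 0.9, 100% of reads were recovered. By the background, the knockdown library had 0.857 times the control depth, for fragment lengths taken as the smallest peak widths (229 and 225 bp). The median summit had 18 reads in the control and 19 in the knockdown list.

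Other sequences than chromosomes 1 to 22 and X (5.75% and 5.47% of peaks) were not used. Strands came from the RefSeq promoter table. Overlap meant 1 bp. Motifs were exact matches. The genes and lists were chosen with earlier results of these data known, and the comparison of summit reads, that with genes of like length and the 6 genes mapped were chosen after seeing the data. Named genes were the highest folds or reads, genes with a peak in 1 list, and the largest differences in covered length. A result that this rule would name among the further spliceosome genes is not reported here.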

Additional observations from a re-analysis of the deposited data

How the results depend on the processing

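No paired analysis was possible because each group held 1 ChIP library. Of the values recomputed under other settings, 12 moved. The flank count, 17 control and 16 knockdown genes, became 15 and 16 with equal numbers of strongest peaks, so its order turned. The clear end count, 6 and 5, became 5 and 5 under the stricter, equal-number and depth-matched settings. With equal numbers of strongest peaks, 64.3% of control peaks in the windows were overlapped. The share over all peaks was not computed at that setting. With gene ends of 2000 bp, 9 of 32 genes had a control interior peak, against 29.7% of all, and 3 a knockdown one, against 22.2%. Of those 9 genes, 3 had both, against 65.5% of all. Less interior was covered in the knockdown list in 12 of 12, against 82.4%. A knockdown flank peak was present for 10 of 34, against 14.8%. With gene ends of 500 bp, 3 of 22 genes had a knockdown end peak, against 5.75% of all. The interior length ratio was then 0.352, against 0.533, and interior coverage was lower in 25 of 29 genes, against 83.3% of all. Without flanks, peaks covered 51368 bp (control) and 28784 bp (knockdown).

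The depth-matched control list, the other summit-read settings and the removal of SNRNP70, SNRPA and U2AF2 were chosen after seeing the data. Without those 3 genes, 3 had an interior knockdown peak, and 3 of 12 genes had one in both lists. With equal numbers of peaks, 10 of 32 genes had a control interior peak, against 27.1% of all, and 5 a knockdown one, against 25.9%. Of those 10 genes, 4 had one in both lists, against 75.7% of all. In that setting interior coverage was lower in 15 of 16 genes, against 77.3% of all, with a ratio of 0.253, against 0.603. With the depth-matched control list it was lower in 19 of 20, against 82.9%. Interior peaks of 10 to 26 reads lie near the lowest count listed (8 reads), and 1 library per group gives no measure of the spread between cultures.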
